A study of Homo sapiens with 2 samples.

Results

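The genes described here belong to families known for regulated exocytosis. That is the calcium-triggered fusion of hormone granules and synaptic vesicles with the plasma membrane. Some members serve other steps of membrane transport, and all are called exocytosis genes here for short. They were chosen by symbol alone, as the synaptotagmins (SYT), synaptotagmin-like proteins (SYTL), syntaxins (STX), SNAP proteins, vesicle-associated membrane proteins (VAMP), RAB3 and RAB27 GTPases, syntaxin-binding proteins (STXBP), UNC13 proteins, complexins (CPLX) and RIM proteins (RIMS). The rule found 75 rows among the 55797 genes of each file, and these were 74 genes, because VAMP7 is listed with identical values on X and on Y and was counted once. Expression was measured by RNA-seq in 2 samples, 1 of live and 1 of processed Stage 6 cells. Both samples came from the H1 human embryonic stem cell line, differentiated stepwise until insulin-expressing cells were present, and both held all cells of the culture. Live cells were neither fixed nor sorted, and their RNA was isolated with the RNeasy protocol. Processed cells went through MARIS, that is, fixation in 4% PFA, permeabilization, antibody staining and a mock sort, before RNA isolation with a modified RecoverAll kit. With 1 sample per condition of 1 cell line, no difference has a replicate check, and no test between conditions was possible.

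Fusion is carried out by SNARE proteins. A VAMP on the granule pairs with a syntaxin and a SNAP protein on the target membrane, and the bundle they form pulls the membranes together. Synaptotagmins sense calcium, syntaxin-binding proteins of the SM family (STXBP2 and STXBP3 among them) chaperone the syntaxin, UNC13 proteins prime granules, complexins hold the assembled bundle, and RAB3 and RAB27 with their RIM and synaptotagmin-like effectors tether granules. In beta cells, the STX1A, SNAP25 and VAMP2 set is best known for insulin release, and SYTL4 (granuphilin) is known for docking insulin granules.

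Levels are given as FPKM, in which the fragments of a gene are divided by its length and by the size of the library, followed by the lower and upper bounds that the authors deposited for each value. Because FPKM is per length, levels can be ordered between genes within a library. The bounds describe the precision of each library alone, and their level is not stated. Ratios are log2((processed FPKM + 1) / (live FPKM + 1)), and the added 1 makes differences of genes with low FPKM look smaller. All statements about 2-fold refer to these ratios, so a gene with low FPKM can be within 2-fold although its FPKM itself differs by more. In these bulk samples, fewer cells of a type and less RNA per cell cannot be told apart. Values above 0 were listed for all 74 genes in the live library and for 72 in the processed library, and all had status OK in both. Of the 74, 20 stood at 10 FPKM or more in live and 21 in processed cells, and the highest were STX3 in live cells, at 31.5 FPKM, and STX8 in processed cells, at 46.3 FPKM. When the genes were ordered by level, 67 of 73 neighbouring pairs in live cells and 61 of 73 in processed cells had overlapping bounds, so most ranks are not separated from the next.

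**Figure D1:**
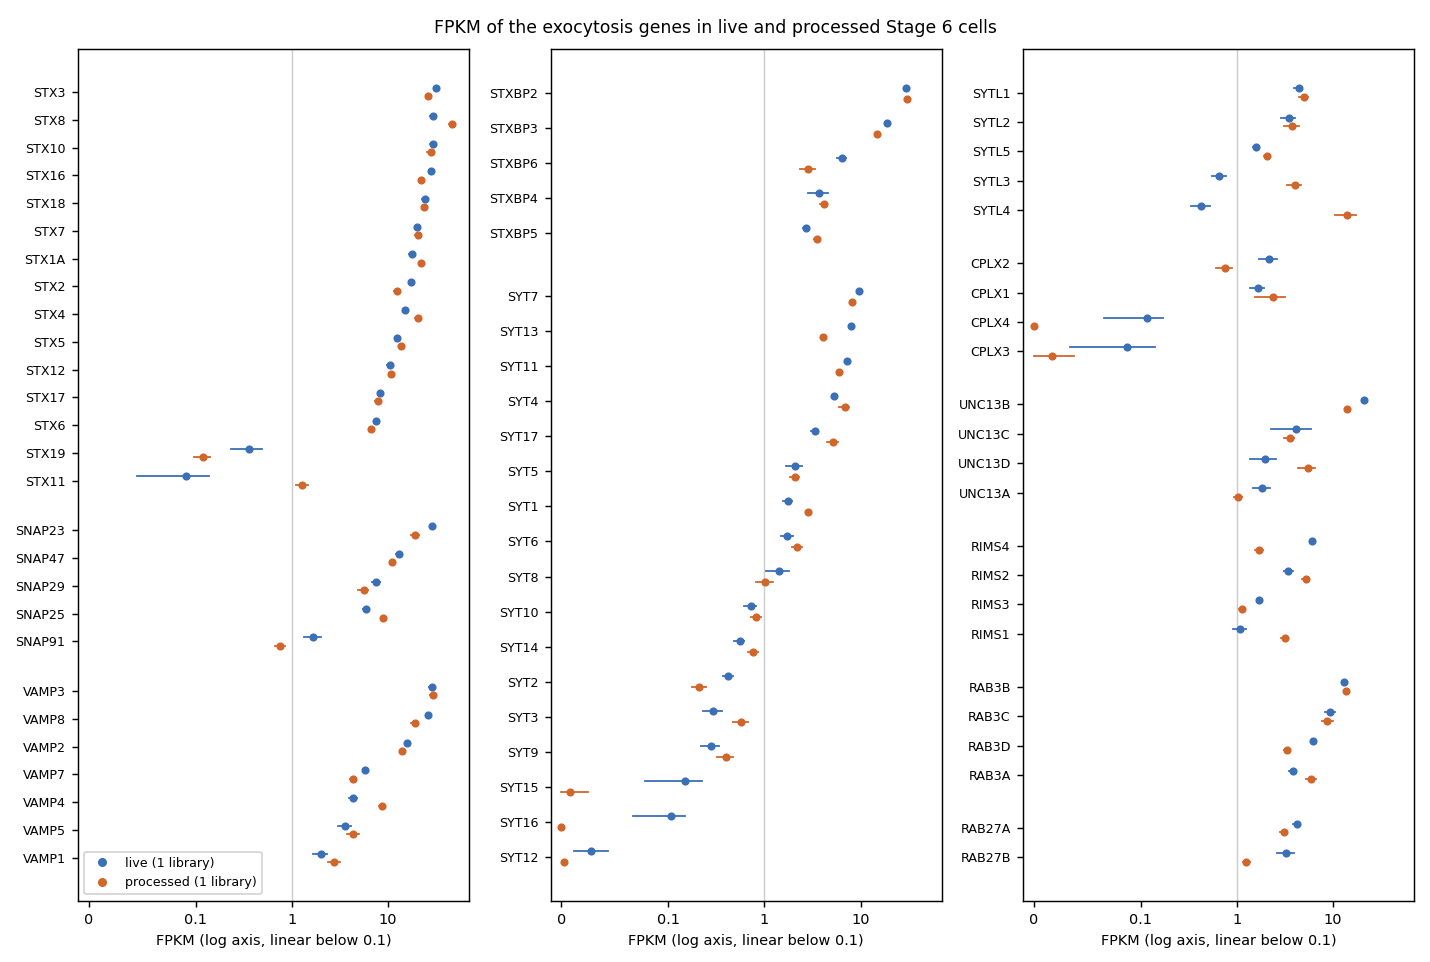
FPKM of 72 of the 74 genes in live (blue) and processed (orange) cells, 1 library each, on a log axis that is linear below 0.1, with lines for the deposited bounds and a grey line at 1 FPKM. Most pairs of points lie close together, and SYTL4 is the pair farthest apart, at 0.424 and 13.98 FPKM.

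Of the 74 genes, 62 reached 1 FPKM in one library or both. Among these 62, 4 rose by more than 2-fold from live to processed cells (SYTL4, SYTL3, UNC13D and STX11) and 1 fell by more than 2-fold (RIMS4). The shares were 6.45% and 1.61%, beside 6.57% and 6.19% of all 17326 genes that passed the same filter, and beside 3.15% and 3.53% of the 13573 protein-coding genes among them. Of the 4 higher genes, SYTL4, SYTL3 and STX11 were under 1 FPKM in live cells and passed only through the processed library, so that they could hardly pass without differing. The median log2 ratio was -0.01 over the 62 genes and -0.09 over all genes that passed, with 30 genes above 0 and 32 below. Bounds did not overlap between the libraries for 44 of the 62 genes (71.0%), and for 71.8% of all genes and 72.5% of protein-coding genes, so non-overlap of bounds was the usual state in this pair of libraries. It was split, with 19 genes higher and 25 lower in processed cells. Restricting the count to the 57 genes with at least 1 FPKM in both libraries left UNC13D and RIMS4. Of all 14635 genes so restricted, 2.91% were higher and 2.30% lower. The 12 genes under 1 FPKM in both libraries, most of them synaptotagmins, lay between 0.0274 and 0.719 FPKM in live cells and between 0 and 0.825 FPKM in processed cells.

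**Figure D2:**
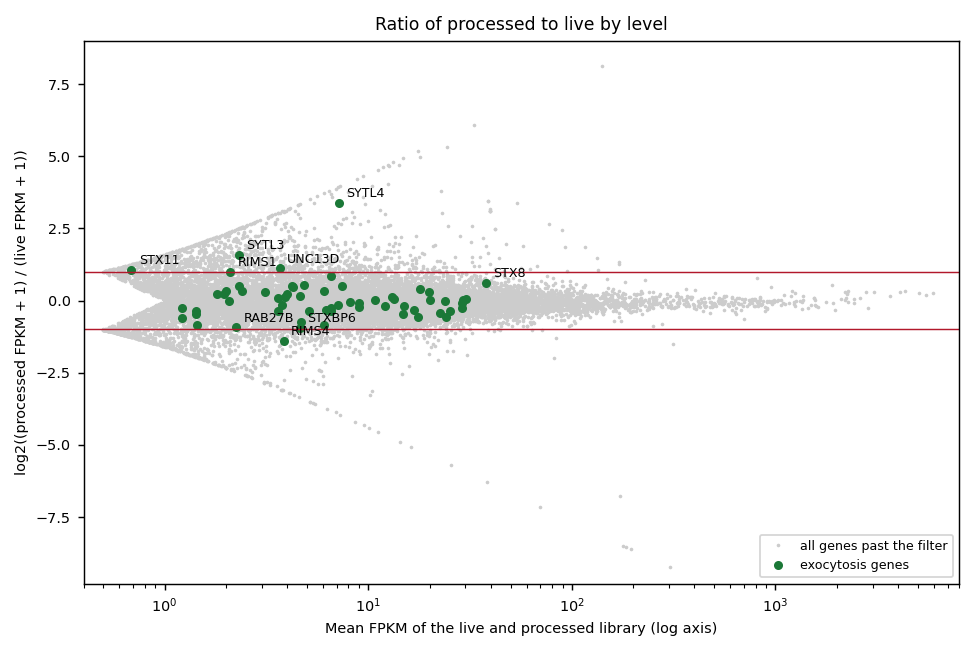
Log2 ratio of processed to live cells against the mean FPKM of both libraries (log axis) for the 62 exocytosis genes (green) and all 17326 genes with at least 1 FPKM in either library (grey), with red lines at 2-fold. The green points lie mostly between the lines, with SYTL4 at 3.39 and RIMS4 at -1.38 as the extremes.

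The spread of ratios depended on level. Among the 18 exocytosis genes with a mean FPKM from 10 to 30, none lay outside the 5th to 95th percentile of protein-coding genes of that level, which ran from -0.70 to 0.60. Of the 27 genes from 3 to 10 FPKM, 4 lay outside the range from -0.94 to 0.86, namely RIMS4, STXBP6, SYTL4 and UNC13D. From 1 to 3 FPKM, SYTL3 was the gene of 14 outside the range from -1.23 to 1.29. From 30 to 100 FPKM, STX8 was the gene of 2 that lay above the upper percentile of 0.49. By definition, 5% of the protein-coding genes of each level lie below such a range and 5% above it, so a few genes outside are usual. STX11, with a mean under 1 FPKM, was in none of these levels.

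The syntaxins were the most abundant family, with 16 members that summed to 253 FPKM in live against 263 FPKM in processed cells. The 7 syntaxins of the plasma membrane, the target of exocytosis, were led by STX3, which serves apical secretion. STX3 had 31.5 FPKM in live cells (30.5 to 32.4) and 26.4 FPKM in processed cells (25.7 to 27.0). STX1A, the syntaxin of insulin granule release, had 17.8 FPKM in live cells (16.8 to 18.9) and 22.1 FPKM in processed cells (20.9 to 23.2). STX4, the widely expressed partner in insulin release, stood at 15.2 FPKM in live (14.3 to 16.1) and 20.7 FPKM in processed cells (19.2 to 22.2). STX2 went the other way, at 17.3 FPKM in live against 12.4 FPKM in processed cells. Within this group, STX1A and STX4 were thus higher, and STX2 and STX3 lower, in processed cells, each with separate bounds and within 2-fold. STX19 was 0.360 and 0.120 FPKM, under 1 FPKM in both libraries.

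STX11, a syntaxin known for granule release in lymphocytes and platelets, was 0.0910 FPKM in live cells (0.0447 to 0.137) and 1.28 FPKM in processed cells (1.11 to 1.46), a log2 ratio of 1.07. At the bounds nearest to each other the log2 ratio was 0.89, within 2-fold with the added 1. The FPKM itself was 14.1 times as high in processed cells, from a live value near 0. The macrophage, platelet and mast cell markers read beside it gave no common direction. Most of them were under 1 FPKM in both libraries, and no lymphocyte marker was in the list. The macrophage marker AIF1 was 2.71 FPKM in live cells and listed at 0 in processed cells, CD14 was 0.25 FPKM and 0, CD68 was 0.830 and 0.703 FPKM, and CSF1R was 0.498 and 0.923 FPKM. The platelet gene PF4 was 0.575 FPKM in live against 1.83 FPKM in processed cells, whereas PPBP and the mast cell genes TPSAB1 and CPA3 were listed at 0 in both. Their part in the STX11 value was not tested.

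The 9 syntaxins of other compartments all passed 1 FPKM in both libraries, and none was past 2-fold. STX8, an endosomal syntaxin on chromosome 17 (9153789 to 9479908, GRCh37), had the largest FPKM of all exocytosis genes in processed cells. Its FPKM was 29.7 in live cells (27.6 to 31.8) and 46.3 in processed cells (43.5 to 49.2), a log2 ratio of 0.63, and its share of the syntaxin sum was 11.7% and 17.6%. STX16, a syntaxin of the trans-Golgi network, was lower in processed cells, at 28.2 FPKM in live (27.3 to 29.1) and 22.02 FPKM in processed cells (21.0 to 23.0). STX16 shares 1446 exon bases with the readthrough gene STX16-NPEPL1, which had 5.08 and 6.11 FPKM, so fragments could be split between the pair. STX6, of the trans-Golgi network and endosomes, was 7.54 and 6.73 FPKM with separate bounds. For STX10, STX18, STX7, STX5, STX12 and STX17 the bounds overlapped, so that 6 of these 9 genes were not separated between the libraries.

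In the SNAP family, the largest share belonged to SNAP23, the widely expressed form, and not to SNAP25, the form of neurons and endocrine cells. SNAP23 had 29.1 FPKM in live cells (27.6 to 30.5) and 19.3 FPKM in processed cells (17.5 to 21.1). SNAP25 had 5.95 FPKM in live cells (5.52 to 6.37) and 8.88 FPKM in processed cells (8.56 to 9.21). The log2 ratios were -0.57 and 0.51. SNAP23 held 50.8% of the family sum in live and 42.2% in processed cells, and SNAP25 held 10.4% and 19.4%. A transcript on the opposite strand, RP11-265N6.1, lies wholly within SNAP23 exons, over 974 bases, and had 7.14 FPKM in live against 11.3 FPKM in processed cells. Its part in the SNAP23 value was not tested. SNAP25-AS1, which shares no exon base with SNAP25, was 1.16 and 0.538 FPKM. SNAP47 was 13.0 and 11.2 FPKM, and JMJD4 on the opposite strand, which shares 2323 exon bases with it, was 5.39 and 2.92 FPKM. SNAP29, which serves autophagosomes and endosomes, was 7.54 and 5.59 FPKM. SNAP91, at 1.68 and 0.761 FPKM, matched the rule by name only, since it encodes a clathrin adaptor of endocytosis and no SNARE.

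The VAMP family was led by VAMP3 and VAMP8, widely expressed granule and endosome SNAREs. VAMP3 was 28.9 FPKM in live (27.1 to 30.6) and 29.4 FPKM in processed cells (27.7 to 31.0), with overlapping bounds. VAMP8 was 26.1 FPKM in live (24.8 to 27.4) and 19.0 FPKM in processed cells (17.4 to 20.6), a log2 ratio of -0.44. VAMP2, the SNARE of insulin granules and synaptic vesicles, came next in both libraries, at 15.9 FPKM in live (15.3 to 16.6) and 14.03 FPKM in processed cells (13.4 to 14.7). VAMP4, a SNARE of the trans-Golgi network, had the largest ratio of the family. It was 4.37 FPKM in live (3.99 to 4.76) and 8.73 FPKM in processed cells (8.02 to 9.44), a log2 ratio of 0.86. VAMP7, of late endosomes and lysosomes, was 5.83 and 4.36 FPKM, VAMP5 was 3.58 and 4.38 FPKM, and VAMP1, the neuronal relative of VAMP2, was 1.997 and 2.78 FPKM. No VAMP was past 2-fold.

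Among the syntaxin-binding proteins, STXBP2, the SM protein of epithelial and blood cells, was the highest in both libraries. STXBP2 was 29.5 FPKM in live (28.7 to 30.3) and 30.7 FPKM in processed cells (29.9 to 31.6), with overlapping bounds. STXBP3, which binds STX4, was next at 18.8 and 14.7 FPKM. STXBP6 (amisyn), which competes with VAMP for the syntaxin and SNAP pair, was 6.38 FPKM in live (5.67 to 7.08) and 2.85 FPKM in processed cells (2.33 to 3.38), with a log2 ratio of -0.94. STXBP5 (tomosyn), another inhibitor of the bundle, was 2.69 and 3.52 FPKM. STXBP4 was 3.68 and 4.15 FPKM, with overlapping bounds. The inhibitors STXBP5 and STXBP6 thus differed in opposite directions.

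Of the 17 synaptotagmins, 9 reached 1 FPKM, and none was past 2-fold. SYT7, a high-affinity calcium sensor of insulin granules, was the highest, at 9.75 FPKM in live (9.33 to 10.2) and 8.17 FPKM in processed cells (7.89 to 8.46). The fast sensors of synaptic vesicles were lower. SYT1 was 1.74 FPKM in live (1.55 to 1.94) and 2.87 FPKM in processed cells (2.68 to 3.07), and SYT2 was 0.422 and 0.211 FPKM. SYT5 was 2.07 and 2.06 FPKM, and SYT9 was 0.278 and 0.3996 FPKM, each with overlapping bounds. SYT6 was 1.74 and 2.197 FPKM with overlapping bounds, and SYT3 and SYT10 were under 1 FPKM in both libraries. Over the 8 calcium-binding synaptotagmins the FPKM summed to 17.0 in live cells and to 17.3 in processed cells.

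The 9 other synaptotagmins, whose C2 domains mostly lack calcium-binding residues, summed to 26.1 and 23.9 FPKM. SYT13 was 8.06 FPKM in live (7.80 to 8.32) and 4.10 FPKM in processed cells (3.91 to 4.30), a log2 ratio of -0.83 and the lowest of the family. SYT11 was 7.20 FPKM in live against 5.95 FPKM in processed cells. SYT4, carried by dense-core granules, was 5.25 FPKM in live (4.99 to 5.51) and 6.86 FPKM in processed cells (6.04 to 7.67), and SYT17 was 3.34 and 5.14 FPKM. SYT16 was 0.108 FPKM in live cells and listed at 0 in processed cells, and SYT12, SYT14 and SYT15 were under 1 FPKM in both. SYT8 was 1.42 and 1.02 FPKM with overlapping bounds. Both groups of synaptotagmins held genes with separate bounds in each direction.

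The synaptotagmin-like proteins, effectors that bind RAB27 on granules, had the largest proportional difference in summed FPKM of the 11 families. Their sum was 10.5 FPKM in live against 28.7 FPKM in processed cells, and 3 of the 5 were higher in processed cells with separate bounds. SYTL4 (chromosome X, 99929488 to 99987110, GRCh37) accounted for most of it. It was 0.424 FPKM in live cells (0.330 to 0.518) and 13.98 FPKM in processed cells (10.5 to 17.4), which is 32.9 times as high and a log2 ratio of 3.39. At the bounds nearest to each other the log2 ratio was 2.93. Of 13573 protein-coding genes that passed the filter, 1 had a larger log2 ratio (CTD-3074O7.11), and of all 17326 genes 30 did. SYTL4 held 4.05% of the family sum in live and 48.7% in processed cells. SYTL3 was 0.656 FPKM in live (0.543 to 0.769) and 3.97 FPKM in processed cells (3.31 to 4.63), a log2 ratio of 1.59, or 1.29 at the nearest bounds. SYTL1 (4.36 and 4.93 FPKM) and SYTL2 (3.43 and 3.76 FPKM) had overlapping bounds, and SYTL5 was 1.59 and 2.04 FPKM.

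The processed value of SYTL4 was the least precise of the 19 exocytosis genes from 10 to 30 FPKM. Its upper bound lay 24.5% above the FPKM, whereas the median over 4353 protein-coding genes from 10 to 30 FPKM was 5.18% and the 95th percentile 11.3%. In live cells, at a far lower FPKM, the upper bound of SYTL4 lay 22.1% above the value. No row at 1 FPKM or more in either library overlaps the SYTL4 locus, and GENCODE 44 lists 6 transcripts for it, from 2076 to 6775 nt. Values of the separate transcripts were not analysed here.

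**Figure D3:**
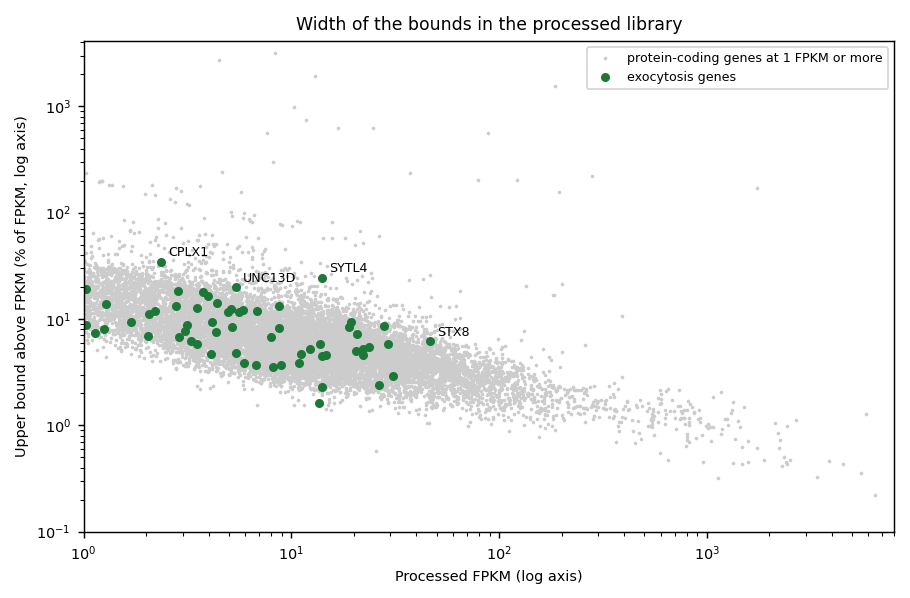
Distance of the deposited upper bound above the FPKM, as a percent of the FPKM (log axis), against FPKM (log axis) in the processed library, for exocytosis genes (green) and all protein-coding genes (grey) with at least 1 FPKM there. SYTL4, at 13.98 FPKM and 24.5%, lies above the other exocytosis genes of its level, and CPLX1 has the widest bounds among the exocytosis genes shown, at 34.5%.

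RefSeq lists a pair of start regions for SYTL4, and they are shown because FPKM sums the transcripts of a gene whichever start they use. Each sequence runs 5′ to 3′ on the minus strand from 250 bases before to 50 bases after a start, with GRCh38.p14 coordinates, and GC boxes (GGGCGG, searched on both strands as GGGCGG and CCGCCC) are in capitals.
SYTL4 upstream start, chrX:100732072-100732371: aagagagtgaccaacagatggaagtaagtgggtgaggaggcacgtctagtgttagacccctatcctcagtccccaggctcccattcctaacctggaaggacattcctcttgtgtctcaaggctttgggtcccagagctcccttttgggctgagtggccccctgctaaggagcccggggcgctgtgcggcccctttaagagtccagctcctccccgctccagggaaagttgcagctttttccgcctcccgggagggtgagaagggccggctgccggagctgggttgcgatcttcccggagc
SYTL4 downstream start, chrX:100731485-100731784: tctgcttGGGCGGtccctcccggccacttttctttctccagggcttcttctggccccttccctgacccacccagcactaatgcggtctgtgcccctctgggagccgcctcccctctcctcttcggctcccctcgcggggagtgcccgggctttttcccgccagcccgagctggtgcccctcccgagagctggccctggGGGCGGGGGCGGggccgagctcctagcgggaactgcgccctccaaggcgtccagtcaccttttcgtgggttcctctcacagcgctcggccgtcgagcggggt
The upstream window held 0 GC boxes, 11 CpG and 60.7% G+C, and the downstream window 3 GC boxes, 23 CpG and 69.7% G+C, where adjacent boxes may share bases. Of all 35116 RefSeq windows of this length, 45.0% held a GC box. Neither window held CCAAT or TATAAA on either strand, which were found in 34.6% and 11.5% of all windows. A match is a description of the letters and not of binding, and which start was used in these libraries was not analysed here.

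Priming factors were dominated by UNC13B, the widely expressed form, which was 21.2 FPKM in live (20.8 to 21.6) and 14.1 FPKM in processed cells (13.8 to 14.4). UNC13A, the form of neurons and beta cells, was 1.83 FPKM in live (1.47 to 2.18) and 1.03 FPKM in processed cells (0.938 to 1.12). UNC13D, which primes granules in blood cells, was past 2-fold in the other direction, at 1.96 FPKM in live (1.35 to 2.57) and 5.42 FPKM in processed cells (4.35 to 6.49). Its log2 ratio was 1.12, and 0.58 at the nearest bounds, so values within the bounds fall on both sides of 2-fold. The macrophage, platelet and mast cell markers given beside STX11 were mostly under 1 FPKM and had no common direction. Their part in the UNC13D value was not tested. UNC13C was 4.06 FPKM in live against 3.52 FPKM in processed cells, with a wide live upper bound, 44.5% above the FPKM.

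The complexins were low. CPLX2 was 2.14 FPKM in live (1.71 to 2.58) and 0.748 FPKM in processed cells (0.601 to 0.894), whereas CPLX1 was 1.65 FPKM in live (1.38 to 1.93) and 2.35 FPKM in processed cells (1.54 to 3.16). CPLX2 held 53.6% of the complexin sum in live and 24.0% in processed cells, and CPLX1 held 41.3% and 75.5%, but the bounds of CPLX1 and CPLX2 overlapped in live cells, so their order there is not separated. The bounds of CPLX1 also overlapped between the libraries. CPLX3 and CPLX4, known from the retina, were at most 0.117 FPKM, and CPLX4 was listed at 0 in processed cells.

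The RIM proteins held the fall past 2-fold and a gene whose ratio with the added 1 was just short of 2-fold in the other direction. RIMS4, a short form without the domain that binds RAB3, was 6.00 FPKM in live (5.78 to 6.23) and 1.68 FPKM in processed cells (1.53 to 1.84). Its log2 ratio was -1.38, and -1.25 at the nearest bounds. RIMS1, a full-length active-zone scaffold, was 1.07 FPKM in live (0.897 to 1.25) and 3.14 FPKM in processed cells (2.86 to 3.41). Its log2 ratio with the added 1 was 0.998, just under 2-fold, whereas its FPKM itself was 2.93 times as high in processed cells. RIMS2, the RAB3 effector known for insulin release, was 3.42 (3.05 to 3.79) and 5.16 FPKM (4.73 to 5.59), and RIMS3, another short form, was 1.71 and 1.13 FPKM. The long forms RIMS1 and RIMS2 were thus higher, and the short forms RIMS3 and RIMS4 lower, in processed cells. Another row, RP4-781B1.2 (chromosome 20, 43380451 to 43383718, GRCh37), lies wholly within RIMS4 exons. Its span of 3268 bases is 60.4% of the exon bases of RIMS4 in GENCODE 44. RP4-781B1.2 itself was not matched there, so its gene type and strand are not given. It was 0.724 FPKM in live (0.591 to 0.857) and 4.29 FPKM in processed cells (3.99 to 4.595), a log2 ratio of 1.62, opposite to RIMS4. Its part in the RIMS4 value was not tested.

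**Figure D4:**
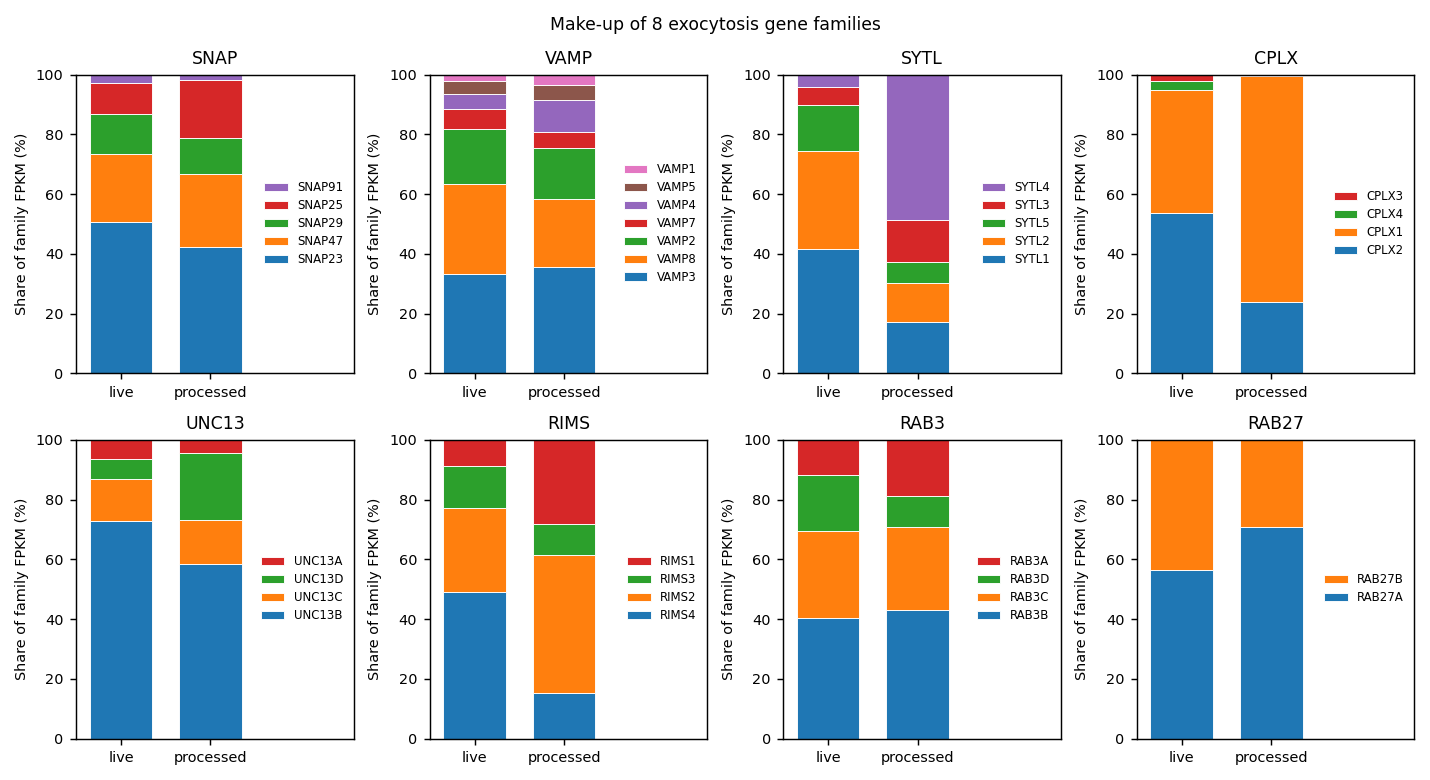
Share of the summed FPKM of a family held by each member (percent, bars from 0 to 100) in live and processed cells, 1 library each, for 8 families. The SYTL bars differ most, with SYTL4 at 4.05% in live and 48.7% in processed cells, and RIMS4 is 49.2% and 15.1% of the RIMS sum.

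Of the RAB3 GTPases, RAB3B and RAB3C were higher than RAB3A in both libraries. RAB3B was 13.1 FPKM in live (12.9 to 13.3) and 13.6 FPKM in processed cells (13.4 to 13.8), and RAB3C was 9.29 and 8.73 FPKM with overlapping bounds. RAB3A, the form best known from synaptic vesicles and insulin granules, was 3.78 FPKM in live (3.43 to 4.12) and 5.88 FPKM in processed cells (5.17 to 6.60), a log2 ratio of 0.53. RAB3D, known from exocrine granules, was 6.11 FPKM in live (5.85 to 6.36) and 3.30 FPKM in processed cells (3.09 to 3.504), a log2 ratio of -0.73. The transcript CTC-510F12.6 on the opposite strand lies wholly within RAB3D exons, over 2040 bases or 46.5% of them. It was 0.876 FPKM in live against 6.60 FPKM in processed cells, opposite to RAB3D, and its part in the RAB3D value was not tested. RAB27A, which recruits SYTL4 to granules, was 4.18 FPKM in live (3.80 to 4.56) and 3.06 FPKM in processed cells (2.83 to 3.30). RAB27B was 3.24 (2.59 to 3.89) and 1.25 FPKM (1.15 to 1.36), a log2 ratio of -0.91. Rows that overlap RAB27A differed in both directions, with PIGB on the opposite strand at 6.84 and 1.09 FPKM and RP11-139H15.1 at 5.96 and 11.3 FPKM. Both RAB27 genes were lower in processed cells with separate bounds, and neither ratio with the added 1 was past 2-fold. The FPKM of RAB27B itself was 2.58 times as high in live cells.

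For the 16 genes best known from insulin granule release, 15 passed 1 FPKM and SYT9 did not. By the ratio with the added 1, SYTL4 alone among them was past 2-fold (6.67% higher and 0% lower, beside 6.57% and 6.19% of all genes). SYTL4 passed only through the processed library, so that it could hardly pass without differing. CPLX2 passed only through the live library, where its FPKM itself was 2.87 times as high. The median log2 ratio of the 15 was -0.17, beside -0.09 over all genes. Bounds were separate for 14 of the 15 (93.3%), beside 71.8% of all genes and 72.5% of protein-coding genes. The list was chosen with earlier results of these data known, so this share describes the listed genes and no trait of insulin release genes can be read from it. Of the 14, 6 were higher in processed cells (SYTL4, RAB3A, SNAP25, RIMS2, STX4 and STX1A). The other 8 were lower (CPLX2, SNAP23, UNC13A, VAMP8, RAB27A, SYT7 and VAMP2 among them). CPLX1 had overlapping bounds. Endocrine markers gave the setting for these values. INS was 98.3 FPKM in live against 121 FPKM in processed cells, SST was 243 and 266 FPKM, GCG was 135 and 131 FPKM, and CHGA was 1794 and 1741 FPKM. CHGB, another granule protein, was lower in processed cells with separate bounds, at 6.56 and 3.16 FPKM, and had the log2 ratio farthest from 0 of the list, at -0.86. NEUROD1 was 13.1 and 15.2 FPKM with separate bounds, and ISL1 (6.67 and 6.65 FPKM) and PAX6 (11.7 and 13.5 FPKM) had overlapping bounds. The 8 endocrine markers summed to 2308 and 2298 FPKM. CHGA holds most of that sum, and its processed bounds ran from 0 to 4712 FPKM. Since neurons use the same machinery, 5 neuronal markers were also read. All 5 reached 1 FPKM, led by the higher of the TUBB3 rows at 149 and 129 FPKM, and all except ELAVL3 were lower in processed cells, with STMN2 at 14.8 and 10.2 FPKM. The part of neuronal or endocrine cells in the ratios was not tested.

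Beyond the families, 69 other exocytosis genes were read as a list, 10 of them SNAREs of other transport steps, and 61 passed 1 FPKM. Of these, 2 rose by more than 2-fold in processed cells and 1 fell, or 3.28% and 1.64%, and the median log2 ratio was -0.15, beside the 6.57%, 6.19% and -0.09 of all genes. Among the counted genes, SYN2 passed only through the processed library and RAB3IL1 only through the live library. For both, the filter itself favours a difference. NSF and NAPA, whose proteins take SNARE bundles apart, differed in opposite directions. NSF was 10.5 FPKM in live against 16.2 FPKM in processed cells, and NAPA was 25.9 and 19.2 FPKM. In the docking, priming and active-zone list, SNAPIN was 24.6 FPKM in live against 14.5 FPKM in processed cells, whereas CADPS, which primes dense-core granules, was 23.0 and 22.1 FPKM with overlapping bounds. All 9 exocyst subunits passed, with none past 2-fold, and EXOC7 and EXOC4 were the highest at 48.5 and 36.9 FPKM in live cells. Among regulators and effectors of RAB3 and RAB27, GDI2, which recycles RAB proteins from membranes, was the highest, at 117 FPKM in live and 104 FPKM after processing. MLPH (melanophilin), a RAB27 effector, was 1.32 FPKM in live against 3.72 FPKM in processed cells, a log2 ratio of 1.02. RAB3IL1, an exchange factor of RAB3, was 1.25 FPKM in live cells and listed at 0 in processed cells. Among vesicle membrane proteins, SCAMP4 and SYPL1 were the highest, at 32.9 and 28.4 FPKM in live cells, and SYN2 (synapsin II) was 0.230 FPKM in live against 1.92 FPKM in processed cells, a log2 ratio of 1.25. All 10 SNAREs of other transport steps passed, with a median log2 ratio of -0.20 and none past 2-fold. VTI1B and YKT6 led them at 43.0 and 39.6 FPKM in live cells.

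**Figure D5:**
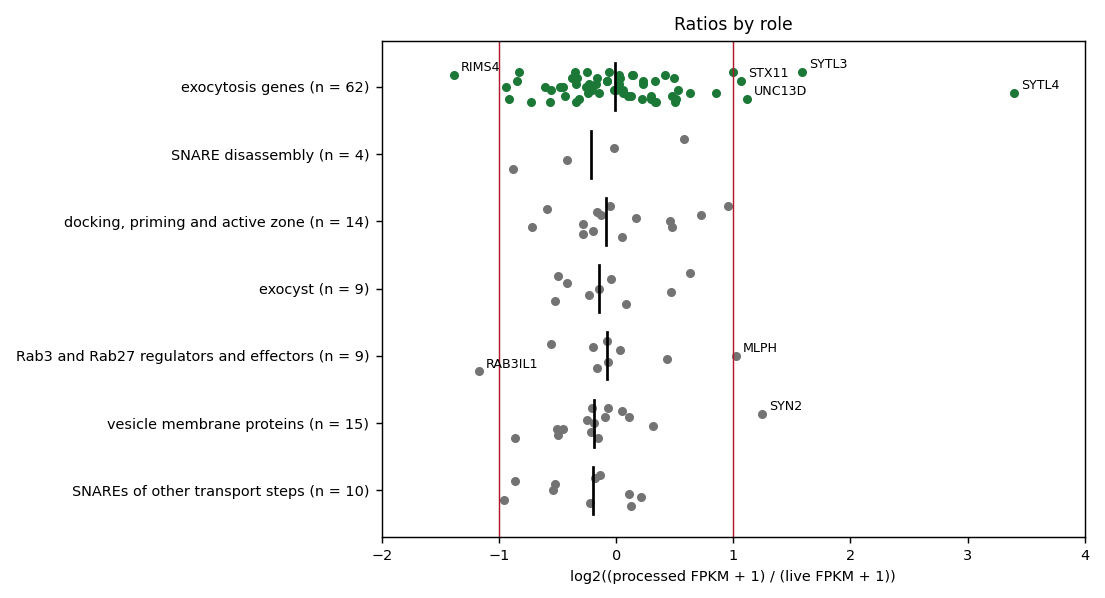
Log2 ratio of processed to live cells for the 62 exocytosis genes (green) and 61 other exocytosis genes (grey) with 1 FPKM or more in either library, by role, with a black line at each median and red lines at 2-fold. The 61 include 10 SNAREs of other transport steps. The medians lie between -0.22 and -0.01, and the genes past the lines are named.

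Over the whole series, FPKM summed to 510713 in live and 499398 in processed cells, and 16004 and 15957 genes reached 1 FPKM. In both libraries low values fell on steps that mark whole fragments, and the step was 1.07 times as large in the processed library, which was slightly shallower. Hepatic markers were present in both libraries (AFP at 460 and 550 FPKM), as were stromal (VIM at 514 and 485 FPKM) and pluripotency markers, so the exocytosis values are those of a mixed culture. The 4 pluripotency markers differed in both directions. NANOG rose from 1.27 to 7.34 FPKM and TDGF1 fell from 5.54 to 1.46 FPKM, while DPPA4 was 23.5 and 18.1 FPKM and POU5F1 was 7.92 and 8.53 FPKM. Pancreatic progenitor markers were also present, with PDX1 at 66.5 and 72.1 FPKM.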

How the data were processed

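RNA-seq of 1 live and 1 processed sample of H1-derived Stage 6 cells was used. Paired 80 nt reads were mapped by the authors with STAR 2.2.0c (GRCh37/hg19, GENCODE 14), and FPKM per gene was deposited with lower and upper bounds. The study's methods name Cuffdiff, and the submitters' processing notes name Cufflinks 2.0.2. Tables were joined by gene identifier with Python 3.11.15, numpy 2.4.6 and pandas 2.3.3, and file starts were raised by 1 to count from 1. Ratios used a pseudocount of 1, and counts and medians used genes with at least 1 FPKM in at least one library. Gene type, strand, exons and transcript lengths came from GENCODE 44 lifted to GRCh37, which matched 94.5% of identifiers. For the step of 1 fragment, FPKM was multiplied by transcript length less 170 nt. RefSeq windows matched 59 of the 74 genes. Whether counting used strand is not given in the sources used here.

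Genes described in full were the highest 3 of each family in live cells, those past 2-fold, those at 0 in 1 library and 16 genes of insulin granule release; other exocytosis genes were named where highest in their list or past 2-fold. Members and lists were chosen with earlier results of these data known. Calculations were tested on simulated data with 200 changed genes. FPKM gives no read counts, so precision rests on the deposited bounds. Alternatives covered pseudocount, filter, scaling, status and overlap with other genes. Values of some genes are not reported here.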

Additional observations from a re-analysis of the deposited data

How the results depend on the processing

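Of 62 exocytosis genes, 4 were more than 2-fold higher and 1 lower in processed cells. With a pseudocount of 0.1, 5 were higher (RIMS1 joined) and 5 lower (RIMS4 with CPLX2, RAB27B, SNAP91 and STXBP6), beside 9.90% and 10.1% of all genes. With a pseudocount of 10, SYTL4 remained as the 1 gene higher and 0 were lower, beside 0.531% and 0.237% of all genes. With a filter of 10 FPKM, 21 genes were left, 1 higher (SYTL4), 0 lower and 14 with separate bounds, and 2.99% and 2.02% of all genes were higher and lower. Leaving out the genes that overlap another gene at 1 FPKM or more took away RIMS4, so that 0 of 49 were lower. In the 57 genes with at least 1 FPKM in both libraries, an alternative chosen after seeing the data, 1 was higher (UNC13D). Of all genes under that alternative, 2.91% were higher. The other counts stayed within 1.5 times under each alternative run, without SYTL4 included. The median log2 ratio of -0.01 changed sign, to 0.07 when processed values were divided by the median ratio of 0.932, to 0.01 with equal FPKM sums and to 0.03 without overlapping genes. The first of these scalings moved the median of all genes from -0.09 to 0.00 and, among 42 genes described in full, turned the sign of RAB3C and STX10. No paired analysis was possible because each condition has 1 sample.

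Without replicates or read counts, the bounds are the only measure of precision. A gene listed at 0 in processed cells (SYT16, CPLX4) had at most 0.117 FPKM in live cells, and no absence can be read from it.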

Other observations

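Across the 62 exocytosis genes with 1 FPKM or more in either library, Spearman's rho between the longest annotated transcript and the log2 ratio was -0.07, and across the 13573 protein-coding genes it was -0.15. These are descriptions across genes of 1 pair of libraries, which differ in RNA isolation and slightly in depth. All genes of a library share its depth and isolation, so genes are not independent replicates. The median longest transcript was 4591 nt for the exocytosis genes and 3840 nt for protein-coding genes. Rows that overlap another gene with at least 1 FPKM were 13 of the 62 exocytosis genes (21.0%) and 39.2% of all 17326 genes. Several of these neighbours differed in the other direction from the exocytosis gene, and others in the same direction. In the other direction, PI4KA beside SNAP29 was 24.8 FPKM in live against 34.6 FPKM in processed cells. CCDC159 beside RAB3D was 3.44 and 8.16 FPKM, and STXBP5-AS1 beside STXBP5 was 2.16 and 0.368 FPKM. In the same direction, FABP5P7 beside STX3 was 55.6 and 37.8 FPKM, WBSCR22 beside STX1A was 32.3 and 36.1 FPKM, and JMJD4 beside SNAP47 was 5.39 and 2.92 FPKM. Beside SYT9, at 0.278 and 0.3996 FPKM, CTD-2516F10.2 was 0.164 FPKM in live against 3.93 FPKM in processed cells.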
